A study of Mus musculus with 2 samples.

Results

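The EAF, ELL and super elongation complex genes are 10 genes of transcription elongation: Eaf1, Eaf2, Ell, Ell2, Ell3, Aff1, Aff4, Cdk9, Ccnt1 and Ccnt2. Every probe set that the platform annotation lists with exactly 1 gene symbol, that symbol being a member, was taken. This gave 22 of the 45101 probe sets on the array, for 9 of the 10 genes among 18193 named genes. Ell3 had no probe set of its own, since the platform lists its symbol only together with another gene, and it has no value here. The samples were ventral prostates of male C57BL/6J mice aged 3 months, without a labelled treatment. A wild-type sample, U19/Eaf2 +/+, was set against a sample homozygous for loss of the gene, U19/Eaf2 -/-, with 1 Affymetrix array each. The labels speak of prostates in the plural, and the sources used here do not say whether RNA of several animals was pooled or which part of the gene was deleted. With 1 array per group there is no replicate error, no test and no p-value, and each difference describes these 2 arrays.

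ELL proteins bind RNA polymerase II and suppress its transient pausing, and EAF1 and EAF2 bind ELL proteins and strengthen that activity. The AFF proteins are scaffolds that join an ELL protein to P-TEFb, the kinase CDK9 with cyclin T1 or T2, and the assembly is called the super elongation complex. P-TEFb releases polymerase held near gene starts by phosphorylating the polymerase and the pausing factors NELF and DSIF. In the prostate U19/EAF2 is known as an androgen-induced growth suppressor, and ELL2 too is known as an androgen-responsive gene.

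Eaf2, the targeted gene, read nearly alike on both arrays in its single probe set. Probe set 1422120_at had signals of 691 in wild type and 702 in the sample labelled knockout, a log2 ratio of 0.02. The values do not separate the arrays. A probe set that lies outside the deletion cannot check the labels, and where this one lies could not be settled from the sources used here. The name array labelled knockout is therefore used throughout, and each direction rests on that label.

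RefSeq lists 3 separate starts for Eaf2, and 1 probe set cannot tell transcripts from them apart. The 120 bases before each start are shown for that reason, from build GRCm38.p6 on the minus strand of chromosome 16, written 5′ to 3′ and ordered from the outermost start inwards. They cover chr16:36874827-36874946, chr16:36828260-36828379 and chr16:36808706-36808825. Capitals mark GGGCGG, the GC box, and CCAAT.
Eaf2 outermost start: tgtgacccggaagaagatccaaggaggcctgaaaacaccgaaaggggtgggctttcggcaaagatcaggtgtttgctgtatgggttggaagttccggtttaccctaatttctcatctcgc
Eaf2 middle start: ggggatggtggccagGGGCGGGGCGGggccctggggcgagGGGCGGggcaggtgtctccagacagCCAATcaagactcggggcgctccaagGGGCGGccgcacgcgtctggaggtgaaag
Eaf2 innermost start: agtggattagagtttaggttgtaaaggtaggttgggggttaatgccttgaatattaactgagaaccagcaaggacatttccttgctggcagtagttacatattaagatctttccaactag
In the printed bases both motifs lay before the middle start only, with 4 GC boxes, of which 2 share 1 base, and 1 CCAAT. Farther out, within 250 bases, CCAAT was found 2 times before the outermost start and 1 time before the innermost. Over the 250 bases before each start, GC content was 50.4%, 71.6% and 40.8% in the same order.

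All 10 genes were matched by symbol to RefSeq promoter windows, 13 in total, and 4 motifs were searched on both strands in the 250 bases before each start. GGGCGG was found in 9 of the 13 windows and in 32.7% of all 32851 windows. CCAAT was found in 8 of the 13 and in 33.8% of all. TATAAA was found in 1 of the 13, that of the innermost Eaf2 start, against 12.4% of all. AGAACA, a half-site of the androgen response element, was found in the windows of Eaf1 and Ell3, 2 of the 13, against 16.1% of all. The letters AGAACA were not in the 3 Eaf2 windows. A match is a description of letters and shows no bound factor.

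The labelled tissue was checked against its markers. The prostate secretory genes Spink1 (62610 in wild type and 64718 in the knockout-labelled sample), Pbsn (34870 and 26812) and Msmb (41774 and 32270) gave strong signals on both arrays. No other prostate lobe was on an array, so these signals do not tell the lobes apart. Of 7 seminal vesicle and other male gland markers, 6 were below the floor on both arrays. The seventh, Tgm4, a transglutaminase of other prostate lobes, read 274 in wild type and 121, below the floor, in the knockout-labelled sample, at least 1.65-fold lower. The floor is the median of all non-control signals pooled over both arrays, 166, and it separates signals used for ratios from those too low to use. Stromal markers read lower on the array labelled knockout in all 8 smooth muscle and all 7 fibroblast genes, with summed signals of 52545 and 38598, and of 22203 and 18645. The fibroblast gene Dcn, at a log2 ratio of -0.03, turned to 0.02 under median centring. Adipocyte markers read higher in 3 of the 4 that reached the floor, with sums of 1207 and 2887 over 5 genes. Car3 had the highest ratio of these, at 234 and 1278, and weighs heavily in the sums. Summed signals were 62265 and 69756 for 6 luminal markers, 2499 and 2667 for 5 basal markers, 1531 and 1416 for 6 endothelial markers, and 4171 and 4124 for 7 leukocyte markers. Among those that reached the floor, 4 of 6 luminal, 2 of 5 endothelial and 4 of 6 leukocyte markers were higher. The endothelial sums include Emcn, at 285 and 172, and the leukocyte sums Lyz2, at 1116 and 808. Of the 4 basal markers that reached the floor, 3 were higher and 1 lower. They ran from Krt5 (772 in wild type and 504 in the knockout-labelled sample) to Dst (698 and 1152). The ratio of 3′ to 5′ control probe sets, a guide to RNA degradation, was 1.25 in wild type and 1.65 in the knockout-labelled sample for Actb, and 0.714 and 0.847 for Gapdh. The part of these differences in the results below was not tested, and in bulk tissue fewer cells of a type and less RNA per cell cannot be told apart.

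Each log2 ratio divides the knockout-labelled signal by the wild-type signal, after signals below the floor were raised to it. Of the 22 probe sets, 19 were above the floor on both arrays, 1 on the array labelled knockout only, and 2 on neither. Of the 20 that entered, 14 were higher and 6 lower on the array labelled knockout, and these counts were the same under median centring, quantile normalization and loess. Over all 20538 named probe sets that entered, 45.2% were higher. The median log2 ratio was 0.10 over the members and -0.04 over all named probe sets. No scaling moved the median of all genes by more than 0.05.

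**Figure D1:**
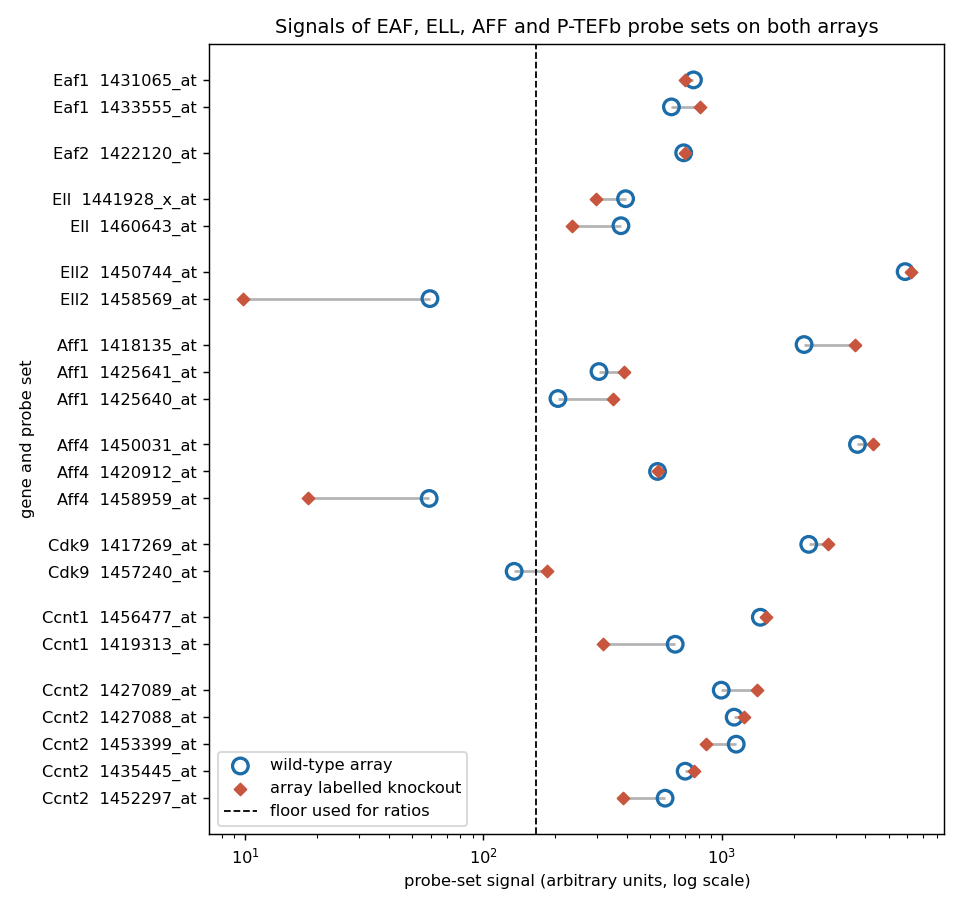
Signals of the 22 probe sets (log axis, arbitrary units), 1 row per probe set, with an open circle for the wild-type array, a diamond for the array labelled knockout and a dashed line at the floor of 166. All 3 Aff1 probe sets lie higher on the array labelled knockout, both Ell probe sets lie lower, and Eaf2 overlaps.

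A reading 2-fold higher or more was given by 0 of the 20 probe sets, against 0.687% of all named probe sets. A reading 2-fold lower or more was given by 1 of the 20, against 1.04%. At 1.5-fold, 2 of 20 were higher (background 4.85%) and 3 of 20 lower (background 7.62%). These numbers are too small to read a departure from the background. Inside the data, spread can be had only from different probe sets of 1 gene, whose log2 ratios had an SD of 0.367 over all genes with at least 2 that entered. It holds differences between probe sets only, including any between the transcripts they read, and nothing of the error between animals, dissections or hybridisations. Ratios with 1 signal raised to the floor were included. A log2 ratio farther from 0 than this SD was seen in 9 of the 20 probe sets, 45%, and in 31.6% of all named probe sets.

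Aff1, one of the AFF scaffolds, read higher on the array labelled knockout in all 3 of its probe sets. Probe set 1418135_at gave 2212 in wild type and 3621 in the knockout-labelled sample, 1.64-fold higher, a log2 ratio of 0.71. Probe set 1425640_at gave 205 and 349, 1.70-fold higher, a log2 ratio of 0.76. Probe set 1425641_at gave 305 and 389, 1.27-fold higher, a log2 ratio of 0.35. The first pair of ratios exceed the SD between probe sets of a gene, and the third does not. Of the 24267 probe sets that entered, named or not, 2.59% had a ratio at least as high as the first, 2.02% as the second and 14.0% as the third. These probe sets were also split into bands of equal size by mean log2 signal. Within the band of each Aff1 probe set, 3.83%, 10.3% and 43.3% lay at least as far from 0, in either direction. Over all bands the shares were 7.02%, 5.41% and 34.1%. Among 1261 genes with 3 probe sets above the floor, 177, or 14.0%, had all 3 higher, and 17, or 1.35%, had all 3 at least as high as the lowest Aff1 ratio. Under quantile normalization and loess the Aff1 ratios ranged from 0.46 to 0.92, in the same direction.

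Aff4, the other scaffold, differed little between the arrays. Probe set 1450031_at gave 3705 in wild type and 4312 in the knockout-labelled sample, a log2 ratio of 0.22. The corresponding signals of probe set 1420912_at were 537 and 542, a log2 ratio of 0.01. Both ratios lie within the SD between probe sets. The remaining probe set, 1458959_at, was below the floor on both arrays, at 59.2 and 18.4, and has no ratio.

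Ell, the founding member of its family of elongation factors, read lower on the array labelled knockout in both of its probe sets. Probe set 1441928_x_at gave 395 in wild type and 296 in the knockout-labelled sample, 1.33-fold lower, a log2 ratio of -0.42. Probe set 1460643_at gave 377 and 234, 1.61-fold lower, a log2 ratio of -0.69. The brighter of these carries the suffix _x_at, which marks probes that can cross-hybridise to other transcripts, and the platform lists no source record for it. Among 2992 genes with 2 probe sets above the floor, 31.9% had both lower, and 69, or 2.31%, had both at least as low as the higher Ell ratio. Quantile normalization and loess brought the pair of Ell ratios nearer to 0, to values from -0.56 to -0.30.

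Ell2, the family member known to respond to androgen, differed little. Probe set 1450744_at gave 5871 in wild type and 6216 in the knockout-labelled sample, a log2 ratio of 0.08. Its other probe set, 1458569_at, gave 59.7 and 9.80, below the floor on both arrays. The Ell2 ratio lies inside the SD of 0.367, and its difference from the Ell ratios was not tested.

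Eaf1, the paralogue of Eaf2 that binds the same partners, had no settled direction. Probe set 1431065_at gave 760 in wild type and 702 in the knockout-labelled sample, a log2 ratio of -0.11. Probe set 1433555_at gave 614 and 811, 1.32-fold higher, a log2 ratio of 0.40. The pair lay 0.52 apart, and among the 2992 genes with 2 probe sets above the floor 29.2% had a gap at least as wide. The probe sets of Eaf1 had nearly the same mean log2 signal, 9.51 and 9.46, so choosing the brighter to stand for the gene sets the sign.

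Cdk9, the kinase of P-TEFb, read slightly higher on the array labelled knockout. Probe set 1417269_at gave 2314 and 2793, a log2 ratio of 0.27. Probe set 1457240_at gave 134 on the wild-type array, below the floor, and 184 on the array labelled knockout, which is at least 1.11-fold higher. Among the genes with 2 probe sets above the floor 22.4% had both higher. The measured ratio lies within the SD between probe sets.

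Ccnt1, which encodes cyclin T1, gave opposite readings. Its probe set 1456477_at gave 1450 in wild type and 1528 in the knockout-labelled sample, a log2 ratio of 0.08. Probe set 1419313_at, whose source record is a RefSeq mRNA, gave 637 and 317, 2.01-fold lower, a log2 ratio of -1.01. That is the 2-fold difference counted above, and 1.12% of all probe sets that entered were at least as low. It did not reach 2-fold under median centring (log2 ratio -0.96), quantile normalization (-0.92) or loess (-0.93). A pseudocount of 50 gave -0.91, and a floor at the 70th percentile, to which the lower signal was raised, gave -0.61. With the floor at the 30th percentile or none it stayed at -1.01. The gap of 1.08 between the Ccnt1 probe sets was 2.09 times the SD expected for a pair of probe sets from the within-gene SD, and 109 of the 2992 genes with 2 probe sets, 3.64%, had a gap at least as wide. The sources used here do not say which exons or transcript ends these probe sets read.

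Ccnt2, which encodes cyclin T2, was split across its 5 probe sets, all above the floor. Higher on the array labelled knockout were 1427089_at, at 994 and 1408 (log2 ratio 0.50), 1427088_at, at 1126 and 1236 (0.13), and 1435445_at, at 702 and 764 (0.12). Lower were 1453399_at, at 1149 and 855 (-0.43), and 1452297_at, at 578 and 383, 1.51-fold lower (-0.59). The range of 1.10 in log2 ratio is not unusual, since 65 of the 235 genes with 5 probe sets, 27.7%, had a range at least as wide. Only 13.6% of those genes had all 5 probe sets in the same direction. The first pair of probe sets differed by 0.0035 in mean log2 signal, and under quantile normalization the other became the brightest and the gene's ratio went from 0.50 to 0.11.

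**Figure D2:**
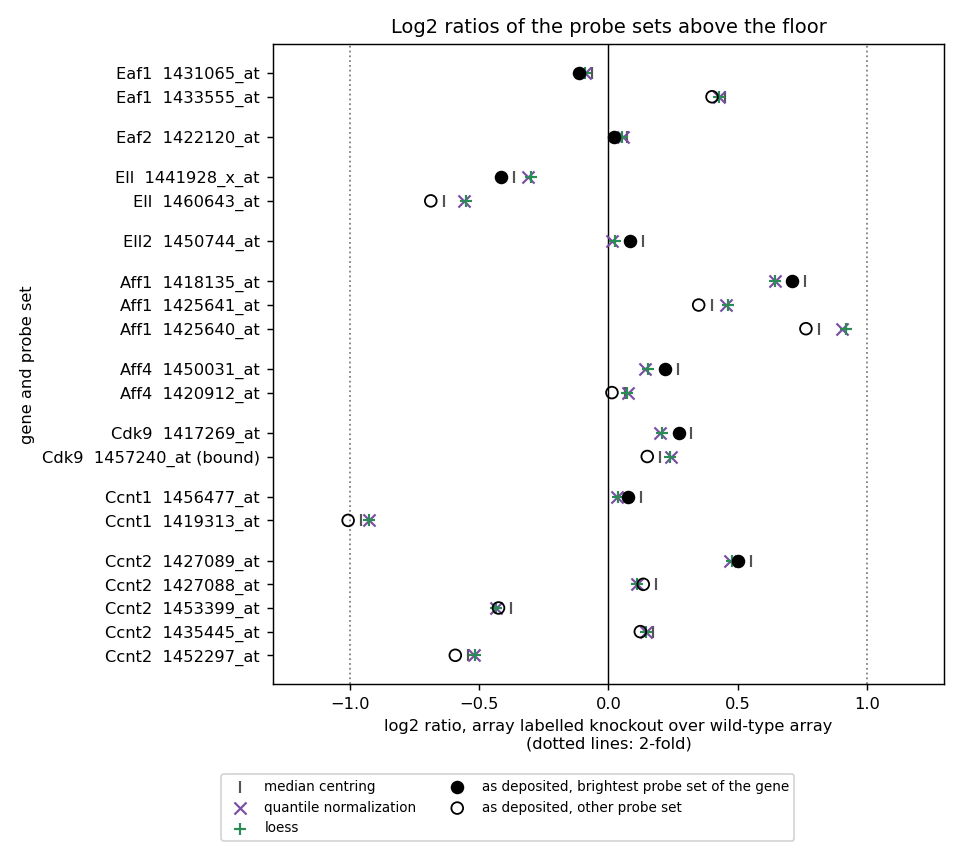
Log2 ratios (array labelled knockout over wild type) of the 20 probe sets above the floor, filled circles for the brightest probe set of a gene and open circles for others, with crosses and bars for the 3 scalings. Aff1 lies above 0 and Ell below it under every scaling shown, while Eaf1, Ccnt1 and Ccnt2 have probe sets on both sides.

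**Figure D3:**
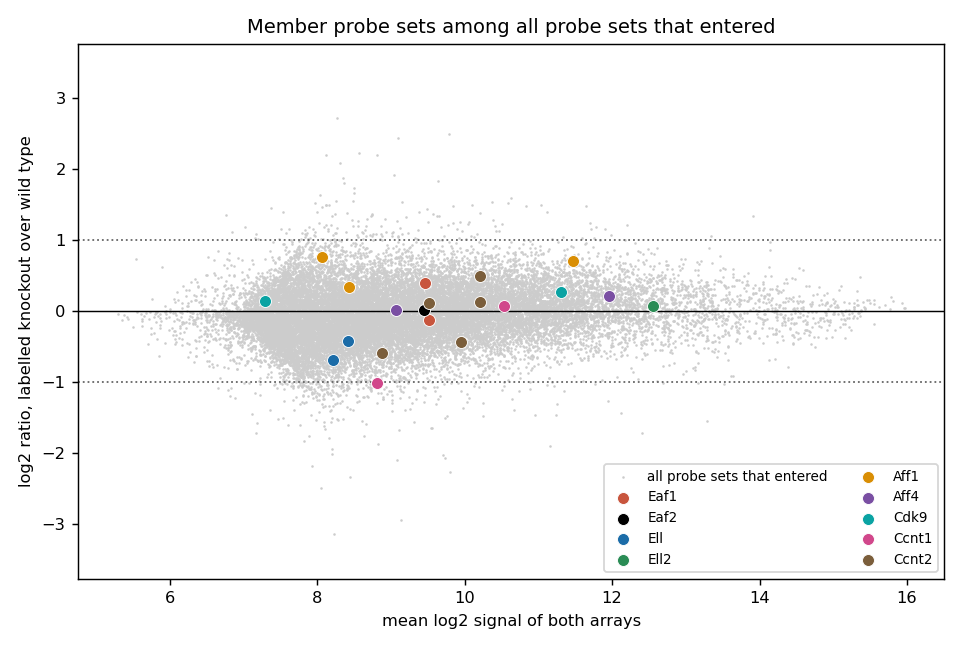
Log2 ratio (vertical axis) against mean log2 signal of both arrays (horizontal axis) for the 24267 probe sets that entered (grey) and the members (coloured by gene), with dotted lines at 2-fold. Of the members, a single Ccnt1 probe set reaches a dotted line.

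With each gene represented by its probe set of highest mean log2 signal, 7 of the 9 genes were higher and 2, Ell and Eaf1, lower on the array labelled knockout. Over all 11671 genes that entered, 47.0% were higher. The member median was 0.08, against -0.03 over all genes. None of the 9 genes differed by 2-fold, against a background of 1.47%. Aff1 alone was at least 1.5-fold higher (background 4.69%) and none was at least 1.5-fold lower (background 6.26%).

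The rest of the elongation machinery was mixed as well. Of 43 other elongation genes listed, 39 had a probe set and 37 entered, of which 20 were higher and 17 lower on the array labelled knockout. Their median log2 ratio was 0.08, and Supt6, a histone chaperone at -0.03, turned to 0.02 under each of the 3 scalings. None differed by 2-fold, against 1.47% of all genes. At 1.5-fold, 2 of the 37 were higher (background 4.69%) and 2 lower (background 6.26%).

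Among the factors that hold P-TEFb in reserve, 3 of 6 were higher. Larp7, a binder of the 7SK RNA that sequesters P-TEFb, read 298 and 472, 1.59-fold higher, with its other probe set also higher. Mepce, the enzyme that caps 7SK, read 954 and 573, 1.67-fold lower, with its other 2 probe sets split. In the pausing factors NELF and DSIF, 2 of 5 were higher, from Nelfa at a log2 ratio of -0.45 to Nelfcd at 0.22. The PAF1 complex, which travels with elongating polymerase, had 5 of 6 genes higher and a median of 0.23. Paf1 itself read 235 and 358, 1.52-fold higher, and Ctr9 was lowest at -0.12, with all of its other 4 probe sets lower too.

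Of the relatives of AFF and of the YEATS proteins that bind it, with the DOT1L partners, 2 of 5 were higher. Dot1l, the histone H3 lysine methyltransferase, read 436 and 278, 1.57-fold lower in its single probe set above the floor, and Mllt3 was highest at 0.29, with both other probe sets higher. Aff2 and Aff3 were below the floor on both arrays. The little elongation complex, an ELL assembly for small nuclear RNA genes, had 2 of 3 genes higher. Zc3h8 had a bound of at least 1.35-fold higher, at 107 and 223, and Ice2 a log2 ratio of -0.22. Among the other elongation factors 6 of 12 were higher, from Elob at -0.50 to Iws1 at 0.23.

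**Figure D4:**
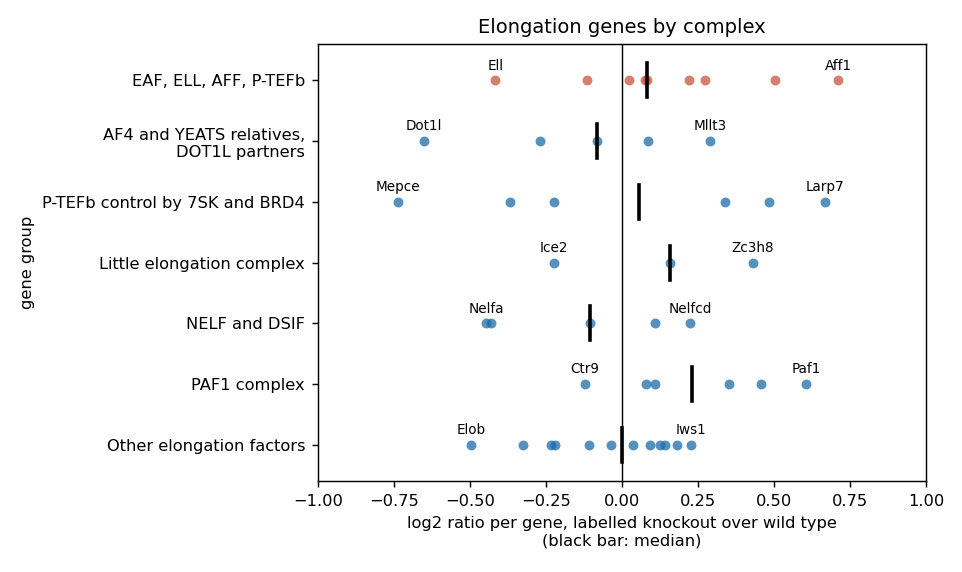
Log2 ratio per gene (array labelled knockout over wild type) for the 9 member genes (red) and 6 groups of other elongation genes (blue), with a black bar at each median and the highest and lowest gene named. Medians range from -0.11 for NELF and DSIF to 0.23 for the PAF1 complex, and no gene reaches 2-fold.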

How the data were processed

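Probe-set intensity values were taken as deposited by the authors, 1 linear value per probe set and array. GCOS 1.4, the Affymetrix operating software, is named in the submitters' processing notes, without its settings. The mean intensity of the deposited values without the top and bottom 2% was 499.9 on both arrays, which shows a scaling of whole arrays. Of 45037 non-control probe sets, the platform annotation named 1 gene for 34945, several genes for 932 and no gene for 9160. A probe set entered if at least 1 array was at or above the floor, the 50th percentile of pooled signals. Ratios below the floor on 1 array are bounds. The probe set that was brightest on average (log2) stood for its gene.

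All 9 members with a probe set were named. Other elongation genes were named when highest or lowest in their group, or 1.5-fold apart, and Supt6, outside that rule, was named after its values were seen, because its sign turned with scaling. No gene of like pattern was sought, since 2 arrays give no measure of likeness. Members and lists were chosen with earlier results of these data known. Alternatives were 3 scalings (loess span 0.4), floors at the 30th and 70th percentiles or none, a pseudocount of 50, 3 other choices of probe set and 2 other fold thresholds. Calculations used Python 3.11.15, numpy 2.4.6, pandas 2.3.3 and statsmodels 0.14.6 and were tested on simulated data. The number of arrays limits the precision.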

Additional observations from a re-analysis of the deposited data

How the results depend on the processing

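The median log2 ratio over member genes stayed above 0 in all 10 alternatives, from 0.05 to 0.15. The median over all genes moved too, from -0.03 to 0.02 under median centring, 0.0069 under quantile normalization and 0.0066 under loess. Under these 3 scalings the member median was 0.13, 0.06 and 0.05. The sign of Eaf2, Ell, Ell2, Aff1, Aff4, Cdk9 and Ccnt2 also held in each alternative that gave them a value. For Eaf2 and Ell2, with 1 probe set above the floor each, the choice of probe set could not change the sign. The sign of Ccnt2 is that of the gene's ratio, and 2 of its 5 probe sets were lower. Ccnt1 and Eaf1 turned when the median over probe sets stood for the gene, to -0.47 and 0.14. The median over other elongation genes was -0.035 with the median over probe sets and -0.0044 with the probe set of the smallest difference. No member gene differed by 2-fold in any alternative at that threshold, and 1 did at 1.5-fold. The count over all genes at 2-fold was 172 of 11671, or 1.47%, with the main settings. It was 708 with a lower floor (30th percentile), 62 with a higher floor (70th percentile) and 2851 with no floor. A pseudocount of 50 gave 285, the probe set of the smallest difference 113, the 1.5-fold threshold 1278 and the 3-fold threshold 12. The floor also changes how many genes enter, so the counts under other floors are not shares of 11671. The SD between probe sets of a gene was 0.902 with no floor, where probe sets with signals below 166 enter. No paired analysis was possible because each group held 1 array. Signals near the floor limit the weaker probe sets, such as 1457240_at of Cdk9.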

Other observations

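The 4 member probe sets whose listed source is a RefSeq mRNA had a median log2 ratio of 0.18, with 3 of 4 higher on the array labelled knockout, against -0.09 over all 3545 such probe sets that entered. The 15 with another GenBank record had a median of 0.12, with 11 higher, against -0.03 over all 15261. The 1 with no listed record, an Ell probe set, was lower at -0.42, against a median of -0.01 over all 1732. Over all named probe sets that entered, of any record, 45.2% were higher, and this share was not split by kind of record. The kind of source record was looked at after the values were seen.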
